A study of Mus musculus with 4 samples.

Results

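YTHDF2 and YTHDC1 are reader proteins of the YTH family, and the places compared here are those where both were found on the same stretch of RNA in mouse bone marrow cells. Every YTHDF2 peak that shared 1 bp or more with a YTHDC1 peak formed a pair with it. This gave 1630 pairs, made of 1626 of the 2834 YTHDF2 peaks (57.4%, exact 95% interval 55.5 to 59.2) and 1607 of the 9963 YTHDC1 peaks (16.1%, 15.4 to 16.9). All 3 lists of the study hold 19866 peaks. The pairs lay under 1039 genes, of which 961 were protein-coding. At each pair the pileup, which is the number of sequenced fragments stacked at the summit, was compared as a ratio and as a rank within its own list.

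m6A is a methyl group on adenosines inside RNA, most often within a GGAC core, and YTH proteins hold the methylated base in a pocket of their YTH domain. YTHDF2 is known as a cytoplasmic reader that hands marked mRNA to deadenylation and decay. YTHDC1 is known as the nuclear member of the family, with roles in splicing, export and the handling of chromatin-bound RNA. A transcript can meet YTHDC1 in the nucleus and YTHDF2 later in the cytoplasm, whereas introns are mostly removed before export.

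The libraries came from primary mouse cells of bone marrow, lineage-depleted and positive for c-Kit (lin- c-Kit+), which the labels name LIC. They were grown with IL-3, IL-6 and stem cell factor. RNA was crosslinked to protein by UV light, fragmented by sonication and precipitated with an antibody to YTHDF2, to YTHDC1 or to IGF2BP2, with 1 library each, and 1 input library was made. The labels give no genotype or treatment that differs between the libraries. That the cells are leukaemic is taken from the series title, and no clone or animal is named. With 1 library per reader no difference has a replicate check, and intervals cover counting error only.

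Sequencing depth is unknown, so a raw ratio cannot say which reader bound more. The median pileup ratio of YTHDF2 over YTHDC1 was 0.667 (95% interval of the median from the order of the pairs 0.625 to 0.682), and all leanings are given relative to it, on a log2 scale centred on 0. The smallest background in the lists was 0.0111 for YTHDF2 and 0.0189 for YTHDC1, a ratio of 0.588. At the 84 pairs with both summits on the same base, the ratio of backgrounds lay within 1% of that value in 84 cases, so both lists were set against 1 scaled background track. Of 14 progenitor and myeloid markers, 5 had a YTHDF2 peak and 9 a YTHDC1 peak, including Myb, Runx1, Cebpa and Spi1 in both lists. Kit had a peak in the YTHDC1 list, while Cd34, Elane, Flt3, Hoxa9 and Mpo had none in any list. Of 18 lineage markers 0 had a YTHDF2 peak and 3 a YTHDC1 peak (Adgre1, Itga2b and Itgam), and 0 lay under a pair.

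The coding windows below show what the leaning pairs look like at the level of RNA. Each is the 101 nt of coding sequence centred on the YTHDF2 summit, 5′ to 3′ on the strand of the gene, from the GENCODE M21 transcripts of GRCm38. Capitals mark GGAC, the core of the m6A motif, and GGAG, the same letters with a G in place of the C, with overlapping copies included. The windows were chosen after values were seen: each gene was represented by its pair of largest summed pileup, with a larger pileup of 10 or more, and the 5 genes each way with the largest lean whose window lay inside a single coding exon were taken. Coding pairs outside these limits, such as a second pair of Hnrnpu (1.58 on the centred log2 scale), leaned further than the last of them. The first 5 leaned to YTHDF2. They lie in Pnisr (exon 6 of 12, chr4:21862016-21862116, plus strand), Ywhag (exon 2 of 2, chr5:135911437-135911537, minus), Smarca4 (exon 29 of 34, chr9:21686079-21686179, plus), Hspa8 (exon 8 of 9, chr9:40804578-40804678, plus) and Snrnp200 (exon 2 of 45, chr2:127209016-127209116, plus).
Pnisr: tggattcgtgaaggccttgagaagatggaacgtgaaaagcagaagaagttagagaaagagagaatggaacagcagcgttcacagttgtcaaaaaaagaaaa
Ywhag: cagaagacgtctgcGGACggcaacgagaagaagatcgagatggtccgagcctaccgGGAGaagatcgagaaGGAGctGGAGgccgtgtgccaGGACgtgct
Smarca4: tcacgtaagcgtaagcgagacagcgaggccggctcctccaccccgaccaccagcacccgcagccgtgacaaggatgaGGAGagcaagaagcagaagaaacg
Hspa8: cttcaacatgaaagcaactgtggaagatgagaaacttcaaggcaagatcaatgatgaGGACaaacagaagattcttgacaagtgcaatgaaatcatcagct
Snrnp200: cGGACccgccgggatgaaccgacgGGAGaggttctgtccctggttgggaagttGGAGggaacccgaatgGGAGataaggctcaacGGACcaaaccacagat

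The next 5 windows leaned to YTHDC1. They lie in Plppr3 (exon 7 of 7, chr10:79865652-79865752, minus), Ryr1 (exon 36 of 109, chr7:29083470-29083570, minus), Tet3 (exon 12 of 12, chr6:83368169-83368269, minus), Taf15 (exon 15 of 16, chr11:83504764-83504864, plus) and Las1l (exon 12 of 14, chrX:95940555-95940655, minus).
Plppr3: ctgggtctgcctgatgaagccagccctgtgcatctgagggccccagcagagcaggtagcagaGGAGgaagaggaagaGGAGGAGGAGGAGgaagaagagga
Ryr1: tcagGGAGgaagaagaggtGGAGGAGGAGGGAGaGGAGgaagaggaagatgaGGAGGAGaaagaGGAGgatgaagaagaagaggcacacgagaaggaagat
Tet3: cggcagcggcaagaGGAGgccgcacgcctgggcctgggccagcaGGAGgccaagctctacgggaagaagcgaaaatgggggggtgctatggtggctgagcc
Taf15: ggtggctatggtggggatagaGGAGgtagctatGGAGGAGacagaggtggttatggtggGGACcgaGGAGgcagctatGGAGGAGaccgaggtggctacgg
Las1l: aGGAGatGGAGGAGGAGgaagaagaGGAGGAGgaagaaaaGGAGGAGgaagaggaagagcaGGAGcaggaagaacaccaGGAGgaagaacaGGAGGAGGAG

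The windows of Ryr1 and Las1l consist largely of GAG and GAA, which code for glutamate, and hold 9 and 13 copies of GGAG. The Plppr3 window ends in such a run and holds 5 copies. The Taf15 window has 6 copies within a repeated unit rich in glycine codons, and the Tet3 window has 2. The YTHDF2-leaning windows hold 0 copies in Pnisr and Hspa8, 1 in Smarca4 and 3 each in Ywhag and Snrnp200. The copies overlap between both sides, since Tet3 has fewer than Ywhag and Snrnp200. G made up 29.7% of the Pnisr and Smarca4 windows, 21.8% in Hspa8, 35.6% in Snrnp200 and 38.6% in Ywhag, against 42.6% in Plppr3, 43.6% in Tet3, 48.5% in Ryr1 and in Las1l and 49.5% in Taf15. Copies of GGAG were also found at the median ratio. The window of Myh9 (exon 22 of 41, chr15:77775114-77775214, minus) holds 10 copies and came from a pair at that ratio.
Myh9: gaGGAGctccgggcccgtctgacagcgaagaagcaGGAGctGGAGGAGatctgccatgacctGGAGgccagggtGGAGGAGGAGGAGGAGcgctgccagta

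Most pairs were shared in proportion. The pileups of both readers went together over the 1630 pairs (Spearman's rank correlation 0.758, a description over places of the same 2 libraries). The summits lay a median of 17 bp apart, on the same base in 84 pairs and more than 100 bp apart in 127. The centred log2 ratio had an SD of 0.95 over pairs and ran from −3.56 to 3.26. Pairs 2-fold or more above the median ratio are called leaning to YTHDF2, and those 2-fold or more below it leaning to YTHDC1. By this rule 225 pairs leaned to YTHDF2 (13.8%, exact 95% interval 12.2 to 15.6) and 286 to YTHDC1 (17.5%, 15.7 to 19.5). These shares are the background against which every group of pairs below is read. They were chosen on the pileups themselves and are a description without a test.

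**Figure D1:**
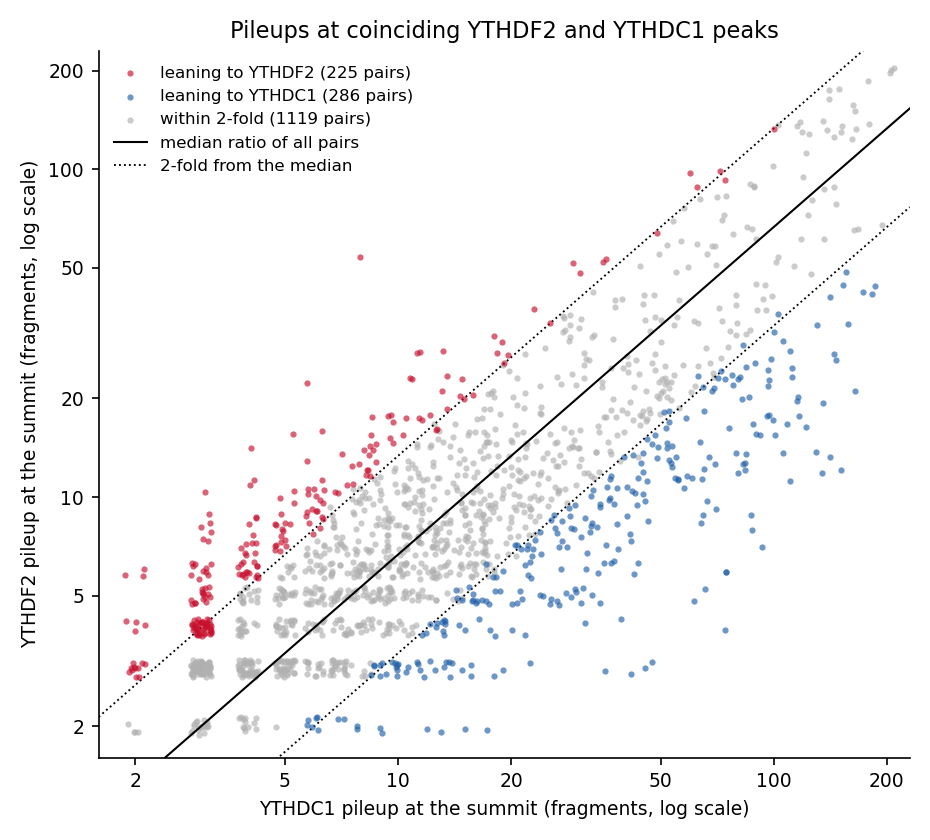
Pileup at the summit of the YTHDF2 peak (vertical, log scale) against that of the YTHDC1 peak (horizontal, log scale) for the 1630 pairs, with points spread slightly so that equal whole numbers can be seen. The solid line is the median ratio of 0.667 and the dotted lines are 2-fold from it. The 225 red pairs lean to YTHDF2 and sit mostly at low pileups, while the 286 blue pairs lean to YTHDC1 and reach far to the right.

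Many leanings rested on few fragments. An exact binomial interval on both pileups of a pair left out the median ratio for 93 pairs above it and 217 below it. Of the 225 pairs leaning to YTHDF2, 49 were beyond this counting interval, and of the 286 leaning to YTHDC1, 186 were. A pair needs a called peak in both lists, whose smallest pileup was 2 in each, so a place strong for one reader with no peak of the other is not counted. Of the YTHDF2 peaks in pairs, 17.5% had a pileup of 3 or less, against 53.5% of those outside pairs. For YTHDC1 this was 11.3% of the peaks in pairs and 25.7% of those outside. Just inside the rule, with 1 bp of overlap, were pairs in Pnpla2 (pileups of 3 for YTHDF2 and 3 for YTHDC1), Arhgef18 (4 for YTHDF2 and 7 for YTHDC1) and Dnaja3 (2 for YTHDF2 and 3 for YTHDC1). Just outside it were peaks 1 bp apart in Chd4 (5 for YTHDF2 and 5 for YTHDC1) and 5 bp apart in Akap13 (3 for YTHDF2 and 3 for YTHDC1).

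The lean went with the strength of the pair. Pairs were split into quintiles by the geometric mean of both pileups. In the weakest quintile (343 pairs, medians of 3 for YTHDF2 and 3 for YTHDC1) 25.4% leaned to YTHDF2 and 3.50% to YTHDC1. In the strongest quintile (326 pairs, medians of 25 for YTHDF2 and 60 for YTHDC1) 5.21% leaned to YTHDF2 and 34.0% to YTHDC1. The median centred log2 ratio was 0.58 in the weakest quintile and −0.62 in the strongest. Accordingly the YTHDF2-leaning pairs had median pileups of 7 for YTHDF2 and 4 for YTHDC1, and the YTHDC1-leaning pairs 7.5 for YTHDF2 and 35 for YTHDC1. The part of the small pileups and of the call threshold in this trend was not tested. Values centred within the quintiles are called strength-centred and are given below for regions, gene groups and named genes. With them 243 pairs leaned to YTHDF2 and 211 to YTHDC1.

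Of the 12 genes named for the largest lean to YTHDF2, 6 had their pair in coding sequence. Pnisr, which encodes a nuclear protein related to SR splicing factors, had a pileup of 21 for YTHDF2 and 6 for YTHDC1 at chr4:21861968-21862160 (centred log2 ratio 2.39, counting interval 1.04 to 3.99). The YTHDF2 peak stood at rank percentile 91.5 of its list and the YTHDC1 peak at 47.8. Smarca4, the ATPase of the SWI/SNF chromatin remodelling complex, had 23 for YTHDF2 and 11 for YTHDC1 in exon 29 (1.65, 0.55 to 2.83). Its 5 pairs had a median of −0.12 and ran from −1.32 to 1.65, with 1 leaning each way, so the gene as a whole did not lean. Rrp15, a ribosome biogenesis gene, had a YTHDF2 pileup of 15 and a YTHDC1 pileup of 6 (1.91, 0.46 to 3.56), and Ywhag, which encodes 14-3-3 gamma, had 17 for YTHDF2 and 8 for YTHDC1 (1.67, 0.38 to 3.09). Fnbp1, a gene for a membrane-bending protein that acts with actin, had 11 for YTHDF2 and 4 for YTHDC1 (2.04, 0.29 to 4.15). Atpif1, the inhibitor of the mitochondrial ATP synthase, had a YTHDF2 pileup of 10 and a YTHDC1 pileup of 5 (1.58), and its interval of −0.10 to 3.48 reached the median ratio.

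Outside coding sequence, 6 more named genes leaned to YTHDF2. Msi2 encodes the Musashi RNA-binding protein known from blood stem cells and myeloid leukaemia. It had an intronic pair at chr11:88545193-88545292 with 15 for YTHDF2 and 5 for YTHDC1 and both summits on the same base (2.17, 0.64 to 3.98). The strongest named pairs on this side were also intronic. Tmtc2, a gene of protein O-mannosylation in the endoplasmic reticulum, had 51 for YTHDF2 and 30 for YTHDC1 at chr10:105238338-105238546 (1.35, 0.67 to 2.05). Tmem56 had 39 for YTHDF2 and 22 for YTHDC1 (1.41), and Rsph3a, a radial spoke gene of cilia, had a YTHDF2 pileup of 13 and a YTHDC1 pileup of 6 (1.70). In 3′ UTRs, the U1 snRNP gene Luc7l2 had 18 for YTHDF2 and 10 for YTHDC1 (1.43). Nop56, a core protein of box C/D snoRNPs, had 22 for YTHDF2 and 11 for YTHDC1 (1.58), but its summits lay 177 bp apart and in different regions. An IGF2BP2 peak overlapped all 12 of these pairs, against 84.0% of the 225 pairs leaning to YTHDF2 and 78.0% of all pairs. It also overlapped all 12 pairs named below for YTHDC1, and 86.0% of the 286 pairs leaning to YTHDC1. The share was 58.9% in the weakest quintile of pairs and 92.3% in the strongest. The strength-centred values of the 12 genes leaning to YTHDF2 ran from 1.58 to 2.81, and come from the pileups by which these genes were chosen.

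The pairs leaning furthest to YTHDC1 were nearly all intronic. Of the 12 genes named by the same rule, 11 had their pair in an intron with no exon touched by either peak. Arhgap15, a GTPase-activating protein for Rac, had a pileup of 12 for YTHDF2 and 158 for YTHDC1 at chr2:43851938-43852037 (centred log2 ratio −3.13, counting interval −4.12 to −2.29). Dock10, a guanine nucleotide exchange factor gene, had a YTHDF2 pileup of 14 and a YTHDC1 pileup of 147 at chr1:80718027-80718278 (−2.81, −3.71 to −2.01), with summits 3 bp apart. Gas7, a growth arrest gene, had 12 for YTHDF2 and 129 for YTHDC1 (−2.84), and Fras1, an extracellular matrix gene, had 9 for YTHDF2 and 88 for YTHDC1 (−2.70) with summits 316 bp apart. Smarca2, another ATPase of the SWI/SNF complex, had an intronic pair at chr19:26729596-26729821 with 5 for YTHDF2 and 64 for YTHDC1 (−3.09, −4.76 to −1.80).

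The remaining intronic pairs of this group had YTHDF2 pileups of 3 to 6, so their ratios are poorly fixed from the YTHDF2 side. They were Gm45837 (4 for YTHDF2 and 71 for YTHDC1, −3.56), Hsd17b11 (3 for YTHDF2 and 48 for YTHDC1, −3.42), Atxn1 (3 for YTHDF2 and 42 for YTHDC1, −3.22), Pdgfrb (6 for YTHDF2 and 75 for YTHDC1, −3.06), Ptges (5 for YTHDF2 and 62 for YTHDC1, −3.05) and Asb3 (3 for YTHDF2 and 35 for YTHDC1, −2.96). The counting intervals of all 12 genes ended below −1, and their strength-centred values ran from −3.15 to −2.09. Both come from the pileups by which the genes were chosen, so they add no support to the lean. Treml2, a receptor gene of the TREM family, was the exception in place, with a YTHDF2 pileup of 11 and a YTHDC1 pileup of 116 in its 3′ UTR (−2.81, −3.86 to −1.92). The YTHDC1 peak was longer than the YTHDF2 peak in all 12, for example 382 bp against 114 bp in Hsd17b11. Over all pairs it was longer in 66.5%. Whether these introns hold repeats, or reads with several matches in the genome, was not tested.

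The 8 genes named for strong pairs at the median ratio had strength-centred values of 0.38 to 0.79, so they lay within 2-fold of the median with either zero point. Myh9, nonmuscle myosin heavy chain, had 88 for YTHDF2 and 138 for YTHDC1 in exon 22 (−0.06, −0.47 to 0.33). Hsp90ab1, the cytosolic HSP90 beta, had 83 for YTHDF2 and 135 for YTHDC1 (−0.12), and the acidic nuclear chaperone genes Anp32b and Ptma had 83 for YTHDF2 and 130 for YTHDC1 (−0.06) and 69 for YTHDF2 and 92 for YTHDC1 (0.17). Hnrnpc had a YTHDF2 pileup of 40 and a YTHDC1 pileup of 71 (−0.24), Safb2 37 for YTHDF2 and 51 for YTHDC1 (0.12) and the helicase gene Eif4a2 34 for YTHDF2 and 55 for YTHDC1 (−0.11). Col6a6 was the only intronic gene of these 8, with 53 for YTHDF2 and 73 for YTHDC1 (0.12). Their summits lay 1 to 39 bp apart.

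**Figure D2:**
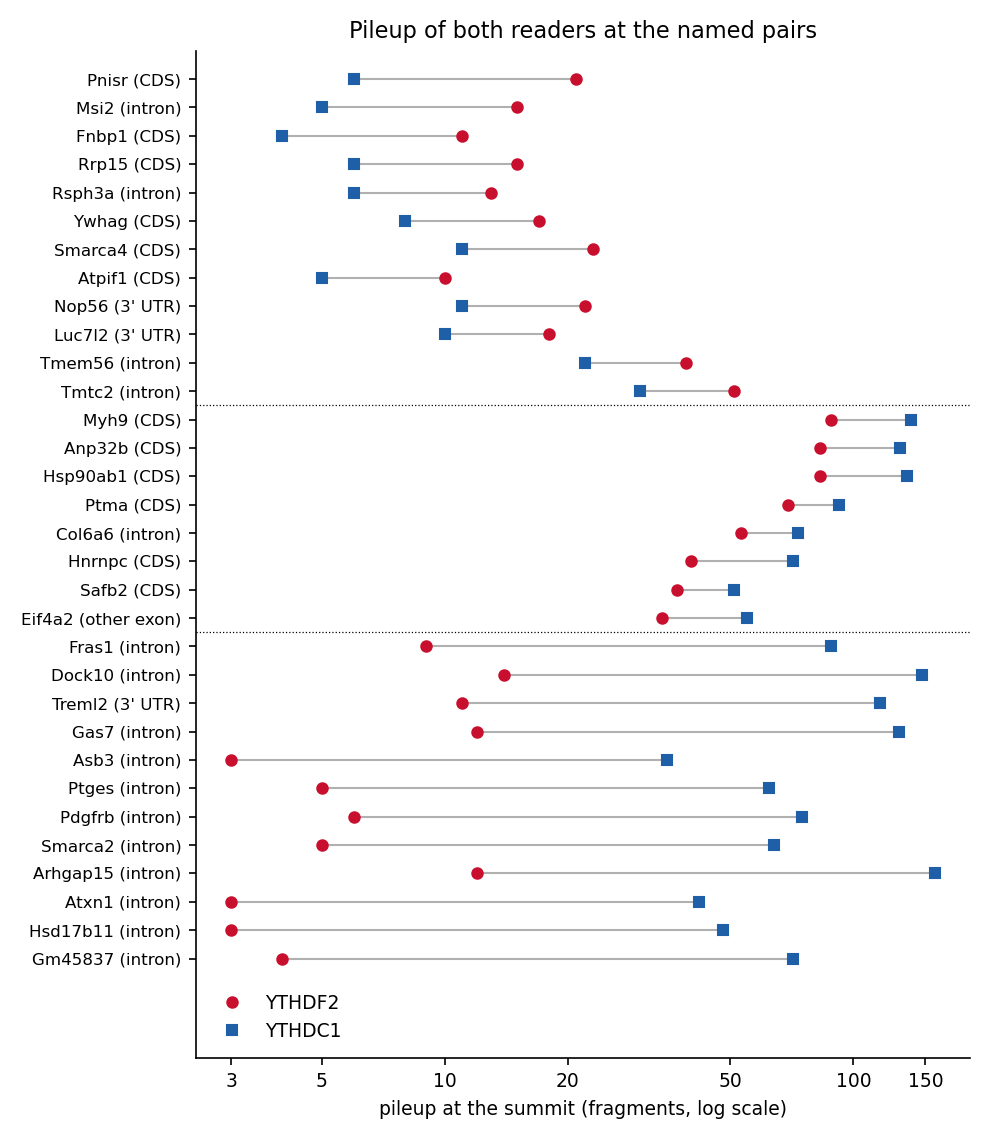
Pileup at the summit (log scale) of YTHDF2 (red circles) and YTHDC1 (blue squares) at 1 pair in each of 32 genes, with the region under the YTHDF2 summit in brackets. From top to bottom are the 12 genes leaning to YTHDF2, the 8 at the median ratio and the 12 leaning to YTHDC1. Circles lie right of squares at the top, and the longest gaps are the intronic pairs at the bottom, such as Arhgap15 with 12 for YTHDF2 and 158 for YTHDC1.

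By region, introns away from exons held leaning pairs both ways, and intergenic places more pairs leaning to YTHDF2. Coding sequence held 818 pairs and lay at the background: its median centred log2 ratio was 0.00, and 14.4% leaned to YTHDF2 and 16.6% to YTHDC1. The 205 pairs in 3′ UTRs had a median of −0.09, with 12.7% leaning to YTHDF2 and 15.1% to YTHDC1, and a strength-centred median of −0.10. The 86 pairs in 5′ UTRs had a median of −0.34, with 4 leaning to YTHDF2 (4.65%, exact 95% interval 1.28 to 11.5) and 19 to YTHDC1 (22.1%, 13.9 to 32.3). The strength-centred median of the 5′ UTR pairs was −0.32, with 2 leaning to YTHDF2 and 10 to YTHDC1. Other exons, which are those of noncoding transcripts, held 101 pairs with a median of −0.09, and 6.93% leaned to YTHDF2 and 19.8% to YTHDC1. Strength-centred, 14 of them leaned to YTHDF2 and 13 to YTHDC1.

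The 313 intronic pairs had a median of 0.00 that hid a split. In 143 of them at least one peak touched an annotated exon, and 12.6% leaned each way. In the other 170 neither peak touched an exon, and 29 leaned to YTHDF2 (17.1%, 11.7 to 23.6) and 54 to YTHDC1 (31.8%, 24.8 to 39.3). With strength centring 42 of the 170 leaned to YTHDF2 and 45 to YTHDC1, with a median of −0.29. Both shares lay above those of all pairs under that centring, 14.9% to YTHDF2 and 12.9% to YTHDC1. The count for YTHDC1 no longer stood far above that for YTHDF2. The 54 had median pileups of 9 for YTHDF2 and 63 for YTHDC1, and the 29 had a YTHDF2 pileup of 15 and a YTHDC1 pileup of 7. Of the 10 pairs 8-fold or more towards YTHDC1, 8 were such introns and 2 were intergenic. Of the 50 pairs 4-fold or more towards YTHDC1, 27 were such introns (54.0%, 39.3 to 68.2) and 12 were coding (24.0%). Of the 14 pairs 4-fold or more towards YTHDF2, 1 was such an intron and 9 were coding. An IGF2BP2 peak overlapped 53 of the 54 introns leaning to YTHDC1, with a median pileup of 23, and 23 of the 29 leaning to YTHDF2. It overlapped 46 of the 87 within 2-fold (52.9%) and 122 of all 170 (71.8%).

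Intergenic places were the exception on the other side. Their 107 pairs had a median centred log2 ratio of 0.60, and 23 leaned to YTHDF2 (21.5%, 14.1 to 30.5) and 8 to YTHDC1 (7.48%, 3.28 to 14.2). With strength centring the median was 0.89, and 45 leaned to YTHDF2 and 5 to YTHDC1. The raw pileups at the strongest of them were close to equal, for example 165 for YTHDF2 and 163 for YTHDC1 at chr3:5860339-5860823. On the Y chromosome 16 intergenic pairs had a median of 0.88, with 7 leaning to YTHDF2 and 0 to YTHDC1, and without them the other 91 had 0.58. Abundant structural RNAs showed the same near-equal pileups. The largest pileup was 200 in both lists. The part of an upper limit on pileups in these near-equal values was not tested. The 6 pairs in genes of the class misc_RNA had median pileups of 147.5 for YTHDF2 and 156.5 for YTHDC1 (0.50, strength-centred 1.12), among them the 7SK RNA gene Rn7sk with 130 for YTHDF2 and 147 for YTHDC1. Malat1, a nuclear long noncoding RNA, had 137 for YTHDF2 and 170 for YTHDC1 at its strongest pair (0.27). The 39 pairs in processed pseudogenes lay on the YTHDC1 side, with a median of −0.64, 3 leaning to YTHDF2 and 12 to YTHDC1. Their strength-centred median was −0.22, with 1 leaning to YTHDF2 and 9 to YTHDC1. Reads shared between a pseudogene and its parent gene cannot be traced in a peak list.

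**Figure D3:**
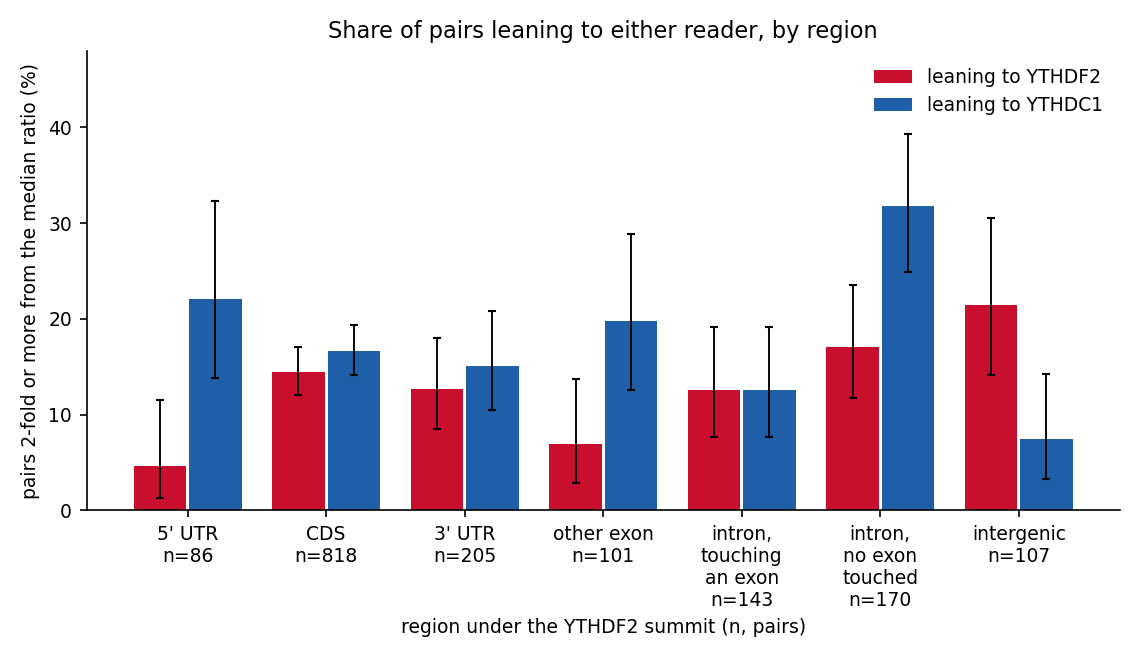
Share of pairs 2-fold or more from the median ratio, towards YTHDF2 (red) and YTHDC1 (blue), by the region under the YTHDF2 summit, with exact 95% intervals that cover counting error only. Introns where neither peak touches an exon have the tallest blue bar (31.8%), and intergenic places are where the red bar stands above the blue (21.5% to YTHDF2 and 7.48% to YTHDC1).

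Along coding sequence, the lean went with the share of G. In the 815 coding windows of 101 nt that could be read, G averaged 33.2% ± 5.81 in the 118 leaning to YTHDF2 and 39.3% ± 6.43 in the 135 leaning to YTHDC1 (SD over windows). It was 34.9% ± 5.57 in the 562 within 2-fold and 26.0% in 340121 windows tiling all coding sequence. T averaged 17.5% in the YTHDF2-leaning and 13.8% in the YTHDC1-leaning windows, and 22.4% in all coding sequence. A and G together made up 61.5% of YTHDF2-leaning and 68.0% of YTHDC1-leaning windows, against 51.8% in all coding sequence. Both groups were thus richer in G and purine than coding sequence at large, and those leaning to YTHDC1 more so.

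In quintiles of G content the shift ran in both directions. In the lowest quintile (192 windows, G up to 30.7%) 21.9% leaned to YTHDF2 and 6.77% to YTHDC1. In the highest quintile (134 windows, G of 41.6% or more) 3.73% leaned to YTHDF2 and 37.3% to YTHDC1. The median centred log2 ratio was 0.32 in the lowest quintile and −0.66 in the highest, and 0.00 and −0.40 with strength centring. Strength moved along with G, since the median geometric mean of the pileups was 5.92 in the lowest quintile and 15.5 in the highest. Over the 815 windows of these libraries Spearman's rank correlation between G and the centred ratio was −0.397, and −0.259 with strength centring. For A it was −0.0021. The part of mappability, amplification or background in this relation was not tested.

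**Figure D4:**
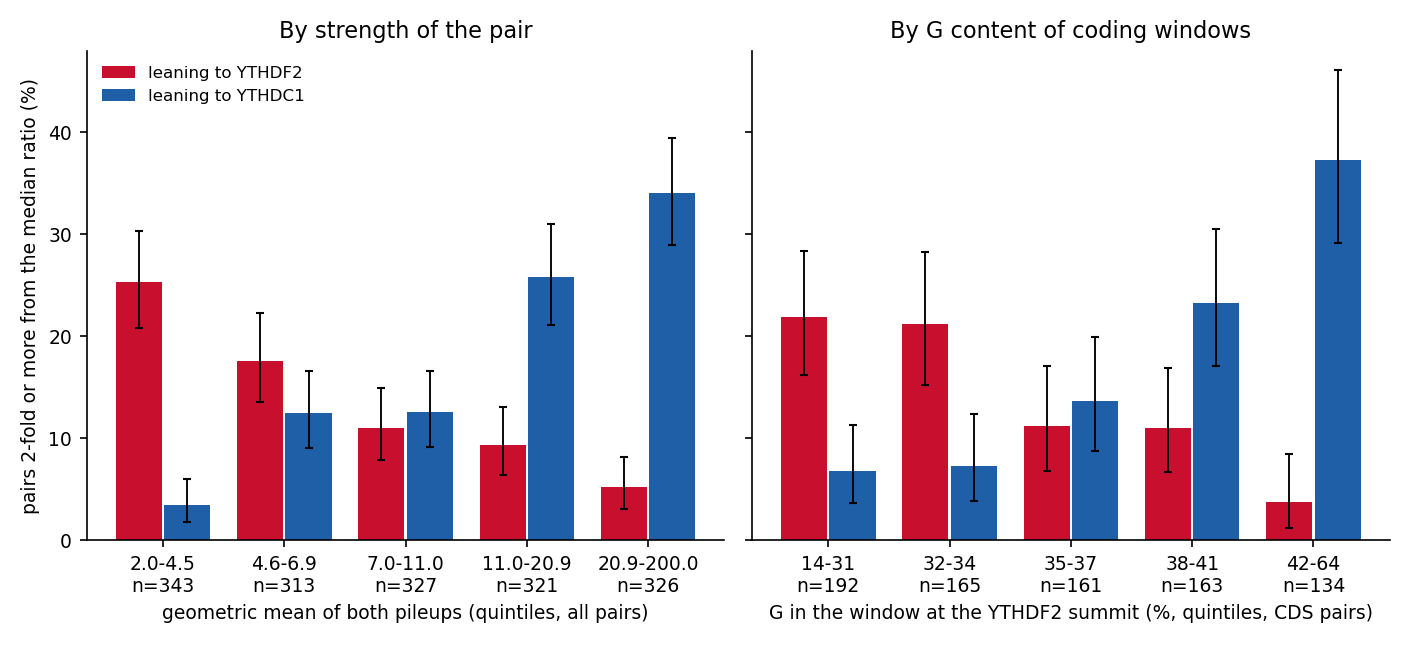
Share of pairs 2-fold or more from the median ratio, towards YTHDF2 (red) and YTHDC1 (blue), with exact 95% intervals. On the left all 1630 pairs are in quintiles of the geometric mean of both pileups, and on the right 815 coding pairs are in quintiles of the G content of the window. From the leftmost to the rightmost bars of both panels the red shares are lower and the blue shares higher, ending at 5.21% for YTHDF2 and 34.0% for YTHDC1 by strength, and 3.73% for YTHDF2 and 37.3% for YTHDC1 by G.

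Short motifs were compared in the same coding windows, read on the strand of the gene. GGAC lay in 46.6% of the YTHDF2-leaning windows (exact 95% interval 37.4 to 56.0), 44.4% of the YTHDC1-leaning ones (35.9 to 53.2) and 37.8% of all coding tiles. The intervals of both groups overlap widely, so no difference in the m6A core was detectable at this number of windows. GGAG lay in 77.1% (68.5 to 84.3) of YTHDF2-leaning and 90.4% (84.1 to 94.8) of YTHDC1-leaning windows, against 51.8% of tiles. GAAG lay in 89.0% of YTHDF2-leaning and 85.2% of YTHDC1-leaning windows, against 54.0% of tiles. The part of G content in the GGAG shares was not tested. Beyond 4000 nt from the transcript start, 20.6% of 102 exonic pairs leaned to YTHDF2 (13.2 to 29.7) and 8.82% to YTHDC1 (4.11 to 16.1). Their strength-centred median was 0.00, with 18 leaning to YTHDF2 and 9 to YTHDC1. In the steps from 200 to 4000 nt, 11.2% to 14.1% leaned to YTHDF2 and 15.7% to 20.3% to YTHDC1, with no steady trend. In the first 200 nt 13.0% of 54 leaned each way.

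Within a gene, pairs resembled each other only a little more than pairs at large. There were 273 genes with several pairs, holding 757 pairs, and the SD of the centred log2 ratio within these genes was 0.80, against 0.89 over the same pairs. The part of counting error in both SDs was not tested, so likeness within genes may be hidden by it. Pairs that share a peak were counted separately. Of 150 such genes with at least 1 leaning pair, 18 had pairs leaning both ways. Myh9 had the most pairs, 16, with 4 leaning to YTHDF2 and 2 to YTHDC1 and a median of 0.31. With strength centring the median was 0.62, and 4 leaned to YTHDF2 and 0 to YTHDC1. The Myh9 pair nearest the gene start had 25 for YTHDF2 and 78 for YTHDC1 (−1.06, strength-centred −0.44). A coding pair further on had a YTHDF2 pileup of 14 and a YTHDC1 pileup of 4 (2.39). The highest centred value of all pairs, 3.26, was also in Myh9 and came from the pairing. A single YTHDF2 peak with a pileup of 51 met a YTHDC1 peak of 61 at 32 bp and a small one of 8 whose summit lay 331 bp away.

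**Figure D5:**
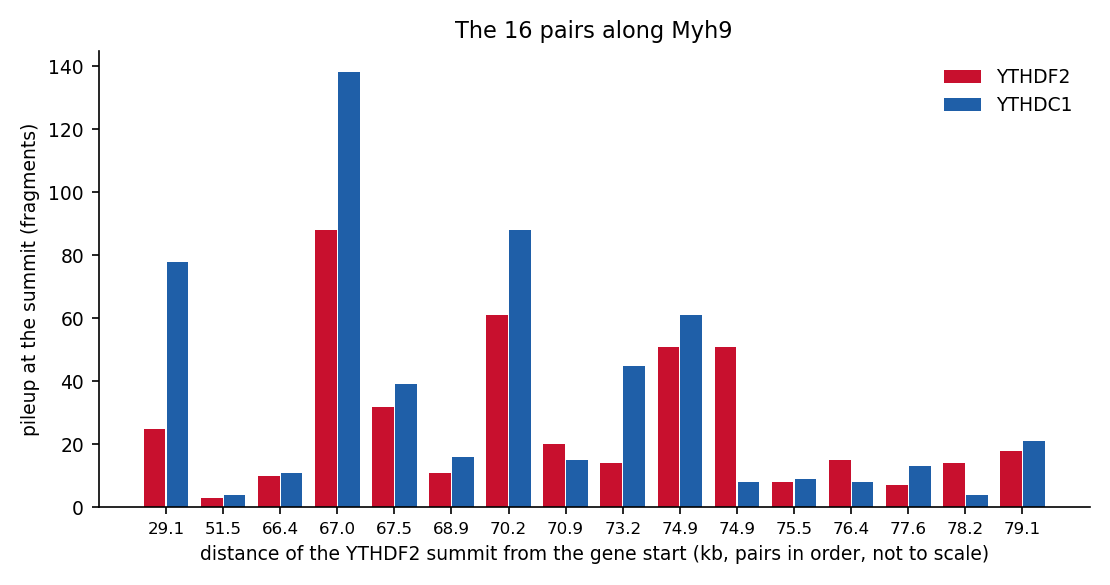
Pileup at the summit of YTHDF2 (red) and YTHDC1 (blue) at the 16 pairs of Myh9, in order of distance from the gene start in kb. YTHDF2 and YTHDC1 share the tallest places (88 for YTHDF2 and 138 for YTHDC1 at 67.0 kb). The pairs at 29.1 and 73.2 kb lean to YTHDC1, but not with strength centring. The same YTHDF2 peak is drawn at both bars marked 74.9 kb.

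The other genes with 4 or more pairs are named by the median over their pairs, which was 2-fold or more from 0 in Akap13 and Arid1b alone among the 8 given here. Akap13, which encodes an anchoring protein for protein kinase A, had the highest median, 1.25, from 4 coding pairs with pileups of 7 to 10 for YTHDF2 and 4 to 11 for YTHDC1. Hnrnpm, a splicing regulator, followed with 0.98 and pairs from −0.93 to 1.58, then Syne1 (0.87) and Cep128 (0.85), which encode long coiled-coil proteins of the nuclear envelope and the centriole. The counting interval of every pair in Akap13, Hnrnpm and Cep128 included the median ratio. All 5 Cep128 pairs lay above 0, from 0.26 to 1.24, while 1 of the 5 Syne1 pairs stood apart at −1.85 (5 for YTHDF2 and 27 for YTHDC1). The summed pileups of Syne1, 28 for YTHDF2 and 47 for YTHDC1, thus lay on the YTHDC1 side of the median ratio, and its strength-centred median was 0.42. At the other end was Arid1b, a subunit of the SWI/SNF complex, with a median of −1.06 (strength-centred −0.80). Its 4 pairs had 13 for YTHDF2 and 84 for YTHDC1, 14 for YTHDF2 and 51 for YTHDC1, 3 for YTHDF2 and 8 for YTHDC1, and 14 for YTHDF2 and 21 for YTHDC1. Def6 (−0.83), Tpm3, a tropomyosin gene (−0.81), and Mybbp1a (−0.80) came next. Of their pairs, 2 leaned to YTHDC1 in Def6 and 1 each in Tpm3 and Mybbp1a. The 4 Tpm3 pairs and the 4 Mybbp1a pairs each rest on 3 YTHDC1 peaks, 1 of which met 2 YTHDF2 peaks. All 5 Def6 pairs lay below 0, but not with strength centring, and their counting intervals all included the median ratio. The strength-centred median of Tpm3 was −0.29. Eif3a, a scaffold subunit of translation initiation factor 3, had 9 pairs with pileups summing to 298 for YTHDF2 and 349 for YTHDC1, of which 0 leaned, or 5 to YTHDF2 with strength centring.

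Gene groups were read against 13.8% leaning to YTHDF2 and 17.5% to YTHDC1 over all pairs. Ribosomal protein genes had 32 pairs in 21 genes with a median of 0.27, 5 leaning to YTHDF2 and 1 to YTHDC1 (3.12%, exact 95% interval 0.0791 to 16.2). Strength-centred, the median was 0.65, with 10 leaning to YTHDF2 and 1 to YTHDC1. Rpl37a had 13 for YTHDF2 and 8 for YTHDC1 (1.29) at one end and Rpl19 4 for YTHDF2 and 19 for YTHDC1 (−1.66) at the other, while the strong pairs in Rpl3 (52 for YTHDF2 and 63 for YTHDC1) and Rps2 (41 for YTHDF2 and 78 for YTHDC1) were near the median. Translation factors had 38 pairs with a median of 0.20, 1 leaning to YTHDF2 and 6 to YTHDC1. With strength centring the median was 0.38, and 6 leaned to YTHDF2 and 4 to YTHDC1. Eif3b, another eIF3 subunit, had 34 for YTHDF2 and 123 for YTHDC1 (−1.27, strength-centred −0.65), and Pabpc1, the cytoplasmic poly(A)-binding protein, had a YTHDF2 pileup of 11 and a YTHDC1 pileup of 53 in its 5′ UTR (−1.68).

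Genes of nuclear RNA handling were mixed. The hnRNP group had 30 pairs with a median of −0.28, 4 leaning to YTHDF2 and 7 to YTHDC1. With strength centring the median was −0.12, and 5 leaned to YTHDF2 and 3 to YTHDC1. Taf15, which encodes an RNA-binding protein with glycine-rich repeats, had 9 for YTHDF2 and 66 for YTHDC1 at the window printed above (−2.29, −3.48 to −1.28). The nuclear scaffold gene Hnrnpu had 47 for YTHDF2 and 150 for YTHDC1 at its strongest pair (−1.09, strength-centred −0.47), and 28 for YTHDF2 and 14 for YTHDC1 at another (1.58, strength-centred 2.00). Hnrnpul2 had a YTHDF2 pileup of 44 and a YTHDC1 pileup of 146 (−1.15, strength-centred −0.53). The SR and splicing group had 28 pairs with a median of 0.08, 4 leaning to YTHDF2 and 3 to YTHDC1. With strength centring the median was 0.47, and 7 leaned to YTHDF2 and 1 to YTHDC1. Luc7l2 stood on the YTHDF2 side, and Rbm25 had 25 for YTHDF2 and 86 for YTHDC1 (−1.20, strength-centred −0.58). DEAD and DEAH box helicases had 16 pairs with a median of −0.58, 3 leaning each way. Their strength-centred median was −0.18. Nucleolar and acidic chaperone and HMG genes had 23 strong pairs (median pileups of 25 for YTHDF2 and 55 for YTHDC1), with a median of −0.46 and a strength-centred one of 0.05. Ncl, or nucleolin, had 131 for YTHDF2 and 160 for YTHDC1 there (0.30). Chaperones had 23 pairs with a median of −0.33 (strength-centred 0.00), 3 leaning to YTHDF2 and 5 to YTHDC1. Hspa8 had 10 for YTHDF2 and 6 for YTHDC1 (1.32, −0.28 to 3.07) and Hsp90b1 13 for YTHDF2 and 42 for YTHDC1 (−1.11, strength-centred −0.49).

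Among chromatin and transcription genes both directions occurred. Chromatin regulators had 46 pairs in 20 genes with a median of −0.07 (strength-centred 0.00), 8 leaning to YTHDF2 and 9 to YTHDC1, shares close to the background. Kmt2d, a histone methyltransferase, had a YTHDF2 pileup of 23 and a YTHDC1 pileup of 73 in its CDS (−1.08, strength-centred −0.46). Stem and leukaemia transcription factors had 16 pairs in 9 genes, 3 leaning to YTHDF2 and 2 to YTHDC1. The 2 were strong: Zeb2 had 19 for YTHDF2 and 116 for YTHDC1 in its CDS (−2.03, −2.81 to −1.32) and the ETS factor gene Erg 41 for YTHDF2 and 185 for YTHDC1 in its 3′ UTR (−1.59, −2.11 to −1.09). With strength centring Zeb2 stood at −1.41 and Erg at −0.97, within 2-fold. The median of the group was −0.08, or 0.30 with strength centring. Foxp1 had 17 for YTHDF2 and 12 for YTHDC1 in an intron (1.09). Zfp zinc finger genes had 12 pairs with a median of −0.46 with and without strength centring, 1 leaning to YTHDF2 and 4 to YTHDC1, among them Zfp36, which encodes the mRNA decay factor tristetraprolin, with a YTHDF2 pileup of 6 and a YTHDC1 pileup of 34 (−1.92). Histone genes had 7 pairs, 0 leaning.

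Of the m6A pathway itself, 5 of the 14 listed reader genes and 2 of the 14 listed writer and eraser genes had pairs. These pairs mostly lay within 2-fold of the median ratio, as did 1119 of all 1630 pairs. They are too few to set the m6A genes apart from pairs at large. Ythdc1, the gene of one of the readers, had 81 for YTHDF2 and 154 for YTHDC1 in its CDS (−0.34, −0.75 to 0.06). The reader group had 9 pairs in 5 genes, 0 leaning to YTHDF2 and 1 to YTHDC1, which was Hnrnpa2b1 with 10 for YTHDF2 and 45 for YTHDC1 (−1.58, strength-centred −0.97). Of the writer genes, Zc3h13 had 20 for YTHDF2 and 39 for YTHDC1 (−0.38) and Virma 7 for YTHDF2 and 17 for YTHDC1 (−0.70), both subunits of the methyltransferase complex. The 4 pairs in mRNA decay genes had a median of −0.96 (strength-centred −0.85), with 0 leaning to YTHDF2 and 2 to YTHDC1, such as Upf2 with a YTHDF2 pileup of 7 and a YTHDC1 pileup of 24 (−1.19, −2.65 to 0.07, strength-centred −0.78).

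Cytoskeletal genes had 50 pairs in 16 genes with a median of 0.17 (strength-centred 0.11), 10 leaning to YTHDF2 and 6 to YTHDC1. With strength centring 8 leaned to YTHDF2 and 1 to YTHDC1. Tuba1b, an alpha tubulin gene, had 23 for YTHDF2 and 73 for YTHDC1 (−1.08, strength-centred −0.46). The list of coiled-coil genes of the centrosome and nuclear envelope, which leaves out Syne1 and Cep128, had 26 pairs in 8 genes. Their median was 0.34 (strength-centred 0.32), with 3 leaning to YTHDF2 and 0 to YTHDC1. With strength centring 3 leaned to YTHDF2 and 1 to YTHDC1. Numa1 had 7 for YTHDF2 and 3 for YTHDC1 (1.81) and Pcnt 22 for YTHDF2 and 17 for YTHDC1 at its strongest pair (0.96, strength-centred 1.37). Glycolysis genes had 13 weak pairs in 5 genes, with median pileups of 4 for YTHDF2 and 7 for YTHDC1 and a centred median of 0.58 that was 0.00 with strength centring. DNA replication and mitosis genes had 21 pairs with a median of −0.07 by either centring, 2 leaning to YTHDF2 and 4 to YTHDC1, and nuclear oxidative phosphorylation genes had 8 pairs, 0 leaning.

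Smaller groups held single strong cases. Mcl1, an antiapoptotic BCL2 family gene needed by myeloid progenitors, had a YTHDF2 pileup of 20 and a YTHDC1 pileup of 78 in its CDS with no IGF2BP2 peak (−1.38, −2.17 to −0.66, strength-centred −0.76), and Pmaip1 had 4 for YTHDF2 and 4 for YTHDC1. Cd47, the surface signal that restrains phagocytosis, had an intronic pair of 10 for YTHDF2 and 38 for YTHDC1 (−1.34, strength-centred −0.93), and Cd44 had one of 41 for YTHDF2 and 40 for YTHDC1 (0.62, strength-centred 1.24). Of 5 pairs in surface and signalling genes, 0 leaned to YTHDF2 and 2 to YTHDC1. The 3 pairs in myeloid granule genes were weak, with 0 leaning. The long noncoding RNA list had 9 pairs, 1 leaning each way, Gas5 with 5 for YTHDF2 and 3 for YTHDC1 (1.32, strength-centred 0.74) and Tug1 with a YTHDF2 pileup of 5 and a YTHDC1 pileup of 19. Of the title genes, Mfsd2a, a transporter of lysophosphatidylcholine, had 1 pair in its CDS with 10 for YTHDF2 and 8 for YTHDC1 (0.91, −0.59 to 2.45), an interval that included the median ratio. Prmt6 had no pair, and neither did any of the other arginine methyltransferases listed.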

How the data were processed

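RIP-seq peak lists of YTHDF2, YTHDC1 and IGF2BP2 were used, from 1 library each, and no file of the input library was used here. The submitters' processing notes name the build GRCm38, HISAT2, Trim Galore and bcl2fastq 2.17. The peak caller is not given in the sources used here. Per the file headers, the deposited tables give a pileup signal at the summit, a fold enrichment (a ratio over local background) and the peak length. The deposited narrowPeak files add the −log10 of p and q and a score, which is 10 times the −log10 q, cut to a whole number. All are the authors' values per peak, used to describe, rank or filter. Library totals are not in the files used, so depth is unknown.

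Overlaps of 1 bp or more made pairs, and a peak that met several gave several pairs. Summits and peaks were set against the annotation with bedtools 2.31.1. Each log2 pileup ratio was centred on the median of all pairs, and 2-fold was called leaning. A pair's interval is the exact binomial (Clopper-Pearson) 95% interval of its pileups. Rank is the percentile of pileup within the whole list. The background of a peak was taken as (pileup + 1)/fold − 1, which assumes that the fold carries a pseudocount of 1. Genes and regions are those under the YTHDF2 summit in GENCODE M21, exons and protein-coding genes first, with UTRs (3′ then 5′) ahead of CDS, other exons and introns. The lists give no strand, so antisense genes are uncertain: 34 pairs had several equally ranked genes and 46 lay in pseudogenes. Coding windows came from the longest complete coding transcript of a gene. Python 3.11.15, pandas 2.3.3, NumPy 2.4.6 and SciPy 1.17.1 were used. Pairing and calls were run on simulated peaks whose base pileups were above those of most pairs. The simulated differences were larger than 2-fold, so 2-fold calls at small pileups were not tested.

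Members and gene lists were chosen with earlier results of these data known. Named genes were protein-coding, with the pair of largest summed pileup each: per direction the 12 with the largest centred ratio, a larger pileup of 10 or more and a rank difference of the same sign, the 8 strongest pairs within 0.25 of 0, the genes of the series title, up to 4 examples per list, and genes with 4 or more pairs, 4 each way. The base composition of windows, the printed windows and the second pair of Hnrnpu were chosen after values were seen. Alternatives varied the overlap, threshold, pileup limits, measure, chromosomes, summit, region order and size of lean. Single libraries allow no test.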

Additional observations from a re-analysis of the deposited data

How the results depend on the processing

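No paired analysis was possible because each reader has 1 library and no result comes from a test. The best mutual pairing, summits at most 50 bp apart, pileups under 150, autosomes and X without pseudogenes, and the YTHDC1 summit for the region kept every value within its interval. Requiring 50% overlap of both peaks gave a median ratio of 0.714, 9.81% leaning to YTHDF2 and 15.5% to YTHDC1, with 19.9% introns among those leaning to YTHDC1. A −log10 q of 5 or more in both lists gave a ratio of 0.615, 14.5% leaning to YTHDC1, 44.5% CDS among pairs leaning to YTHDF2 and 31.6% introns among those leaning to YTHDC1. A larger pileup of 10 or more gave a ratio of 0.500, 19.2% leaning to YTHDF2 and 14.6% to YTHDC1, CDS shares of 38.5% on the YTHDF2 side and 41.0% on the YTHDC1 side, and 34.5% introns among pairs leaning to YTHDC1. With fold in place of pileup the ratio was 0.761, 10.0% leaned to YTHDF2 and 12.5% to YTHDC1, and CDS was 41.1% of the YTHDF2 side. With CDS before UTRs that share was 60.0%. At 3-fold, 2.70% leaned to YTHDF2 and 6.75% to YTHDC1, with CDS shares of 63.6% on the YTHDF2 side and 37.3% on the YTHDC1 side, where introns made up 38.2%. By ranks 20 points apart 12.02% leaned to YTHDF2.

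The other alternatives, all on the zero point, were chosen after seeing the data. The limits on overlap, q and pileup above also moved the zero point to the median of the pairs kept. With a larger pileup of 10 or more and the zero point of all pairs, 8.22% leaned to YTHDF2 and 28.1% to YTHDC1, with 44.9% CDS and 26.9% introns on the YTHDF2 side. Centred within quintiles of strength, 12.9% leaned to YTHDC1 and CDS was 41.6% of the YTHDF2 side. Centred on the ratio of backgrounds, 18.04% leaned to YTHDF2 and 11.9% to YTHDC1, with 30.9% introns among those leaning to YTHDC1. Centred on intergenic pairs, 1.47% leaned to YTHDF2 and 36.9% to YTHDC1, and CDS was 66.7% of the YTHDF2 side. Which reader more pairs lean to therefore depends on the zero point, which unknown depth leaves unfixed. Pileups of a few fragments limit every single ratio, and introns held a larger share of the YTHDC1 side at the 3-fold limit. The cause of these shifts was not tested.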
